A study of Homo sapiens with 18 samples.

Results

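The potassium channel gene family was taken as every row of the count table whose Ensembl identifier maps to a symbol made of KCN, further letters, a number and at most 1 closing letter. The rule found 95 genes among 60612 rows, of which 60401 had a symbol, and it uses no measured value. By name the 95 genes fall into 12 classes. The pore-forming classes are the voltage-gated Kv1 to Kv4 genes (17), the Kv7 genes (5), the EAG, ERG and ELK genes (8), the Slo genes (4), the small- and intermediate-conductance SK and IK genes (4), the inward rectifiers (16) and the tandem-pore leak channels (15). The remaining classes are silent Kv subunits (10), Kv beta subunits (3), KChIP subunits (4), KCNE subunits (5) and BK beta subunits (4).

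The libraries hold polyadenylated RNA of plasmid-transfected human cell lines, and 12 of them were used here. HepG2 is a line grown from a liver carcinoma, and SH-SY5Y is a neuroblastoma line, itself a clone of an older tumor line. Each line has 3 control libraries, whose plasmid encoded the fluorescent reporter mNeonGreen, and 3 EXACT1 libraries, whose plasmid encoded mNeonGreen and the miRNA EXACT1. All 4 groups therefore carry an mNeonGreen plasmid, and no untransfected cells stand among them. HepG2 cells received 100 ng plasmid per well with Lipofectamine 2000 while SH-SY5Y cells were nucleofected, so the line and the transfection method cannot be told apart. Whether replicates are separate cultures is not stated in the labels, so the p-values here measure the spread among libraries, which may be technical. Libraries of HEK293A cells were left out because their values do not match their row identifiers.

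Library totals lay between 66056962 and 77100150 counts. SH-SY5Y control replicate 2 and HepG2 EXACT1 replicate 1 stood apart from the rest, with 13.0% and 9.83% of counts on ribosomal protein genes against 4.64% to 5.92% in the other 10 libraries, and results that rest on them are given with and without them. All 9 hepatocyte markers reached 1 CPM (counts per 1000000 counts of the library) in HepG2, where they summed to between 89123 and 96946 CPM. In SH-SY5Y 7 of the 9 also reached 1 CPM, but they summed to 225 to 286 CPM. Of 9 neuroblast markers, 8 reached 1 CPM in SH-SY5Y (5145 to 7243 CPM in sum, against 3.42 to 5.57 CPM in HepG2). In HepG2, 2 did in the control libraries and 1 in the EXACT1 libraries. Of 8 fibroblast markers, 7 reached 1 CPM in SH-SY5Y (170 to 473 CPM in sum) and 1 did in HepG2 (6.42 to 17.4 CPM). Of 4 endothelial markers, 3 reached 1 CPM in HepG2 (8.08 to 10.9 CPM in sum) and none in SH-SY5Y. Of 4 leukocyte markers, 1 did in HepG2 (46.0 to 133 CPM in sum) and none in SH-SY5Y. The part of these lists in the differences between the lines was not tested. In bulk RNA, fewer cells of a type and less RNA per cell cannot be told apart.

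Potassium channels let potassium ions leave or enter the cell along their gradient and thereby set the resting membrane potential and end electrical spikes. Voltage-gated Kv, Kv7 and EAG-type channels open on depolarization, Slo and SK channels respond to intracellular calcium or sodium, inward rectifiers pass current near rest, and tandem-pore channels carry background leak. Silent Kv, Kv beta, KChIP, KCNE and BK beta subunits make no pore of their own and modify the gating or traffic of pore-forming partners. Excitable cells such as neurons are known for a wide set of these channels, and hepatocytes use fewer of them, mainly to keep the membrane potential that drives transport.

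SH-SY5Y carried a far broader and more abundant set of potassium channel transcripts than HepG2. In the control libraries, 39 of the 95 genes had a mean of at least 1 CPM in SH-SY5Y and 8 did in HepG2, and 18 against 2 had at least 10 CPM. The same counts of 39 and 8 were found in the EXACT1 libraries. As a share of the family this was 41.1% in SH-SY5Y and 8.42% in HepG2, whereas 24.4% and 21.3% of all rows reached 1 CPM. Genes at 1 CPM in both lines included KCNAB2, KCNG3, KCNMB3 and KCNMB4, those in HepG2 alone were KCNE3, KCNJ10 and KCNJ11, and 34 genes reached 1 CPM in SH-SY5Y alone. Of the 95 genes, 36 share exon sequence with another annotated gene, so their counts are uncertain. Of the genes described below with counts, these are KCNAB2, KCNAB3, KCNE3, KCNE5, KCNG1, KCNH1, KCNH3, KCNH7, KCNIP2, KCNJ4, KCNJ8, KCNJ14, KCNK15, KCNMA1, KCNMB3, KCNN2, KCNQ1 and KCNQ5.

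Summed over the family, the HepG2 control libraries held 59.4, 61.1 and 63.5 CPM (mean 61.3 ± 2.10, SD, n = 3). The SH-SY5Y control libraries held 795, 810 and 1063 CPM (mean 889 ± 151, SD, n = 3), the highest value being that of replicate 2, so the lowest SH-SY5Y library stood far above the highest HepG2 library. In the EXACT1 libraries HepG2 held 60.6 ± 7.33 CPM and SH-SY5Y held 808 ± 20.2 CPM (SD, n = 3 each). Of the family, 53 genes stayed under 1 CPM in the control libraries of both lines. Among them, 17 had no count in any of the 12 libraries: KCNA5, KCNA10, KCNB2, KCNC2, KCND2, KCNG4, KCNJ1, KCNJ6, KCNJ15, KCNJ16, KCNJ18, KCNK16, KCNK17, KCNK18, KCNMB1, KCNU1 and KCNV1. A count of 0 allows a level of up to 3 counts per library, which is 0.0389 to 0.0454 CPM at these depths, counting error only.

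**Figure D1:**
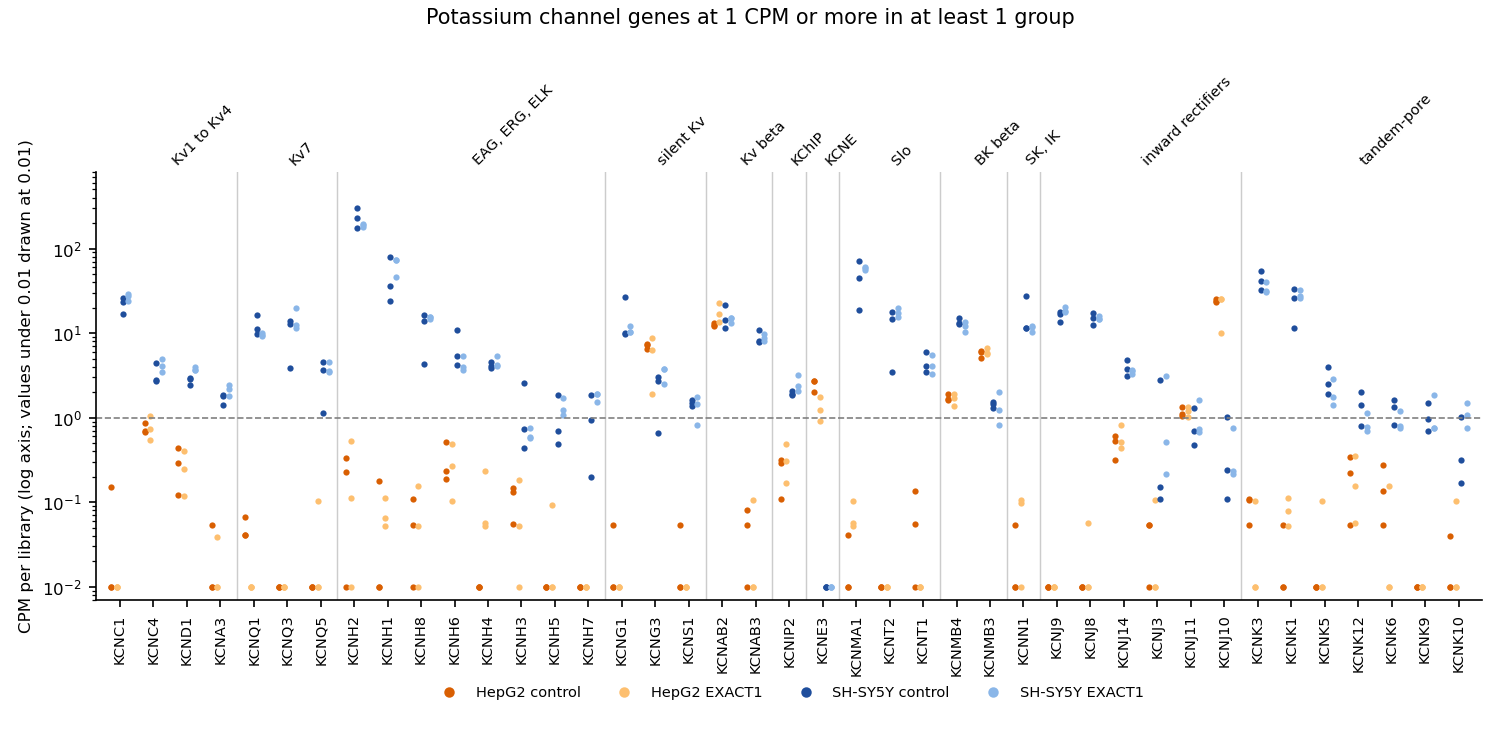
CPM of the potassium channel genes reported here that reached a mean of 1 CPM in at least 1 group, 1 point per library, on a log axis and ordered by class, with values under 0.01 drawn at 0.01. By group mean, most genes sit above the dashed line at 1 CPM in SH-SY5Y and below it in HepG2, while KCNJ10 and KCNE3 show the opposite order. KCNG3 and KCNMB3 have means above 1 CPM in both lines, with the higher means in HepG2.

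The make-up of the family differed as much as its size. Levels of different genes were compared as CPM per kb of annotated exon. In the SH-SY5Y control libraries the EAG, ERG and ELK genes held 40.0% of the family's summed level per length (39.9% to 40.1% over libraries), Kv7 genes 18.8% (14.0% to 24.8%) and tandem-pore genes 12.3% (9.80% to 14.9%). In HepG2 those classes held 1.44%, 0.258% and 1.48%. There the inward rectifiers held 41.2% (40.9% to 41.8%), and silent Kv, Kv beta, BK beta and KCNE subunits, none of which forms a channel by itself, held 18.4%, 13.4%, 9.73% and 9.63%. The ranges over libraries of the 2 lines did not overlap for any class named here.

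**Figure D2:**
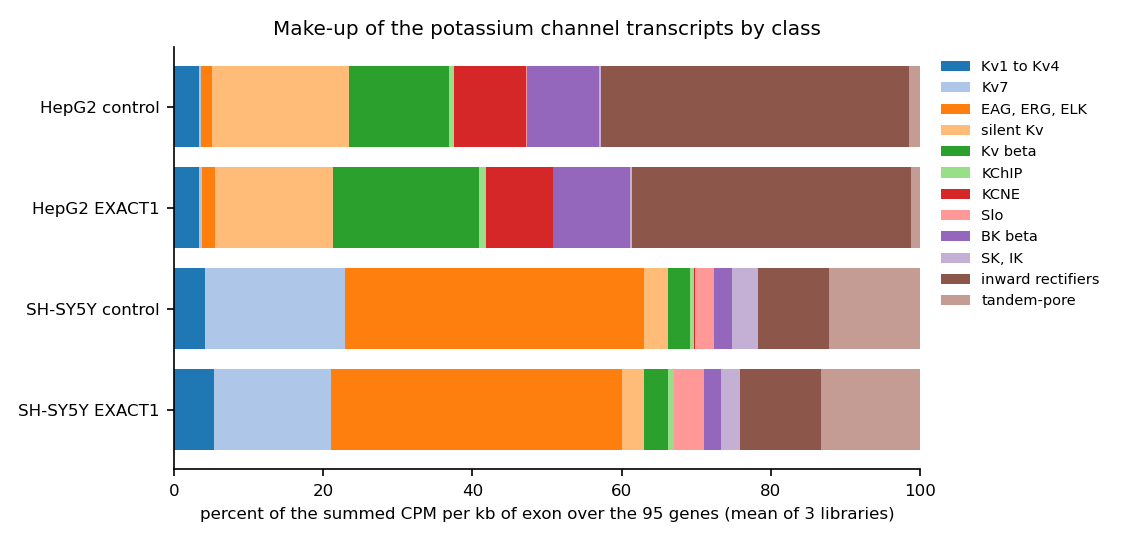
Share of each of the 12 classes in the summed CPM per kb of exon over the 95 genes, as the mean of 3 libraries per group. In SH-SY5Y the EAG, ERG and ELK class is the widest bar at 40.0% of the control libraries, and in HepG2 the inward rectifiers are at 41.2%.

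When the lines were tested against each other in the control libraries, 53 of the 95 genes passed the filter on low counts, and the other 42 were too low in both lines to test. Of the 53, 40 were higher in SH-SY5Y, where 30% of all 19775 genes tested were called higher, and 4 were lower (KCNE3, KCNJ10, KCNMB3 and KCNG3), where 23.2% of all genes were called lower (edgeR's quasi-likelihood test, two-sided, adjusted p under 0.05 by Benjamini-Hochberg). Every SH-SY5Y library was above every HepG2 library for 45 of the 53 and below for 5, and such pairs without overlap made up 70.4% of all genes. Many of these genes passed the filter only through SH-SY5Y and so had to differ: 14 of the 53 had no count in any HepG2 control library, and others had only a few. The median fitted log2 difference was 5.80 over the 53 genes, 3.97 with genes at 0 in one line set to their bound, and 0.27 over all genes tested. Fitted differences rest on library sizes scaled by TMM, which moved every SH-SY5Y minus HepG2 difference by -0.64 on the log2 scale relative to the ratio of plain CPM in the control libraries and by -0.92 in the EXACT1 libraries.

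The EXACT1 libraries gave the same contrast in samples that the control comparison did not use. There, 56 genes were tested, 39 were higher in SH-SY5Y, where 28.1% of all genes were, and 6 were lower, where 24.3% were. Every SH-SY5Y library was above every HepG2 library for 47 of the 56 and below for 4, against 76.5% of all genes without overlap in either direction. The median fitted log2 difference was 4.71, 3.73 with genes at 0 in one line set to their bound, and 0.18 over all genes. Of the calls, 37 genes were higher and 4 lower in both contrasts and none was called in opposite directions. Of the higher calls, 92.5% of those in the control libraries and 94.9% of those in the EXACT1 libraries were shared. Much of this sharing was set in advance by the filter, which many genes passed only through SH-SY5Y in both contrasts. Of the 56 genes, 14 had no count in any HepG2 EXACT1 library. KCNH3, KCNK6 and KCNK15 were called higher in the control libraries and not in the EXACT1 libraries, where KCNK15 was too low to test. KCNK7 and KCNN3 were called higher in the EXACT1 libraries and were too low to test in the control libraries. KCNE5 and KCNAB2 were called lower in the EXACT1 libraries and not in the control libraries. The difference between the contrasts was not tested for these calls, and some rest on a library that stands apart. Without SH-SY5Y control replicate 2, KCNAB2 was also called lower in the control libraries (edgeR adjusted p = 0.00455) and KCNH3 was not called. Without HepG2 EXACT1 replicate 1, KCNK15 and KCNH3 were called higher in the EXACT1 libraries (edgeR adjusted p = 0.0464 and 0.0156) and KCNN3 was not called (edgeR adjusted p = 0.0535).

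Without SH-SY5Y control replicate 2 the control contrast called 42 higher and 5 lower of 57 genes of the family, while over all genes the shares called rose to 37.7% higher and 32.4% lower. Without HepG2 EXACT1 replicate 1 the other contrast called 41 higher and 6 lower of 59, while over all genes the shares rose to 40.2% and 32.4%.

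**Figure D3:**
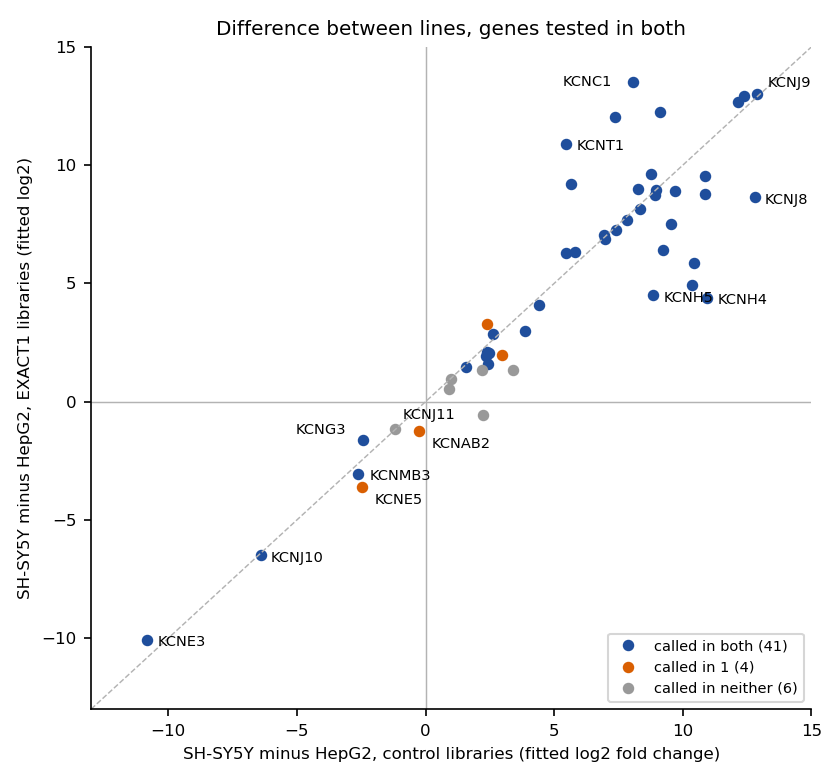
Fitted log2 difference between SH-SY5Y and HepG2 for the 51 genes tested in both contrasts, in the control libraries (x axis) and in the EXACT1 libraries (y axis), colored by whether the gene was called. The 41 genes called in both lie in the same quadrant on each axis, and points far above or below the dashed line of equality, such as KCNC1, KCNT1, KCNH4 and KCNJ8, are genes with 0 or a few counts in HepG2, whose fitted value depends on the prior count.

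All 8 EAG, ERG and ELK genes were tested and called higher in SH-SY5Y control libraries. KCNH4, KCNH5 and KCNH7, with no count in HepG2 control libraries, passed the filter only through SH-SY5Y and so had to differ. KCNH1, KCNH2, KCNH3 and KCNH8, at 0 to 0.329 CPM in HepG2 control libraries, also passed it only through SH-SY5Y, so the filter favored their calls. In the EXACT1 libraries 7 of the 8 were called higher, with the same limit. KCNH2 (ENSG00000055118, chr7:150944961-150978315 on GRCh38, minus strand) encodes hERG, the pore of the rapid delayed rectifier that repolarizes the heart. It was the most abundant member per length in SH-SY5Y at 40.2 ± 10.5 CPM per kb (SD, n = 3), which was 32.1% of the family. Its control values were 233, 300 and 176 CPM in SH-SY5Y and 0.329, 0.227 and 0 CPM in HepG2, and its EXACT1 values were 191, 179 and 198 CPM against 0.113, 0 and 0.532 CPM. The groups were far apart in both contrasts, with a fitted log2 difference of 9.71 (SE 1.12, edgeR adjusted p = 0.000681) in the control libraries and 8.90 (SE 1.23, edgeR adjusted p = 0.00148) in the EXACT1 libraries. Among all 58394 genes with an exon length, KCNH2 ranked 1093 by CPM per kb in SH-SY5Y control libraries and 20714 in HepG2.

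Because KCNH2 and KCNJ10 lead the family in the 2 lines, their promoters are shown side by side. Each covers 250 bases before and 50 after the first start listed in RefSeq on GRCh38.p14, both on the minus strand: chr7:150978272-150978571 for KCNH2 and chr1:160070111-160070410 for KCNJ10. Capitals mark GGGCGG (the GC box), CAGCACC and GGACAG (parts of the RE1 element, described with the motif search) on either strand, and in KCNH2 the reverse of CAGCACC overlaps a GC box.
KCNH2: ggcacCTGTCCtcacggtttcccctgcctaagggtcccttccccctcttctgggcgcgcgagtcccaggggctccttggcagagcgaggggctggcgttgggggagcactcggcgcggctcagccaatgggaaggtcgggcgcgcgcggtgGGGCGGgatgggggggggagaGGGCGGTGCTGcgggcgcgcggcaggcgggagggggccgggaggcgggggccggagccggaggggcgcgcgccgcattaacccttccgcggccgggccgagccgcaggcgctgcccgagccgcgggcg
KCNJ10: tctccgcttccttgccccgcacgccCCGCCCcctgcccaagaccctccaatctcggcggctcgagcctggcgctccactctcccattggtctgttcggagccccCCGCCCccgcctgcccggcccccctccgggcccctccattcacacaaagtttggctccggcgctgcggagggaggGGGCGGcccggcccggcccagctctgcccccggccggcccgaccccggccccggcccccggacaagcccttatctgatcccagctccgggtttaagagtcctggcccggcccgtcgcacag
Both windows are rich in G and C (78.3% in KCNH2 and 74.7% in KCNJ10) and in CG pairs (39 and 29), and both hold GC boxes, while TATAAA is in neither. CAGCACC and GGACAG each appear in KCNH2, far apart, and in this window of KCNJ10 neither does.

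The other EAG-type genes followed at lower levels. KCNH1, which encodes the EAG channel Kv10.1 found in brain and in many tumors, had 36.3, 24.1 and 80.3 CPM in SH-SY5Y control libraries and 0, 0 and 0.176 CPM in HepG2. The SH-SY5Y values spread widely, yet the lowest was well above every HepG2 value (log2 difference 8.93, SE 1.28, edgeR adjusted p = 0.00155). KCNH4, an ELK channel gene of the nervous system, had 4.58, 4.13 and 3.87 CPM in SH-SY5Y control libraries and no count in HepG2 control libraries, at least 103-fold higher. KCNH6 and KCNH8 had 10.7 and 16.2 CPM in their highest SH-SY5Y control library and at most 0.520 and 0.110 CPM in HepG2 control libraries, while KCNH3, KCNH5 and KCNH7 stayed under 3 CPM in every library. KCNH3 was the one gene of the class whose call rested on a library that stands apart: SH-SY5Y control replicate 2 had 2.57 CPM against 0.735 and 0.441 CPM, and without it the edgeR adjusted p was 0.0857. In the EXACT1 libraries KCNH3 was called higher only without HepG2 EXACT1 replicate 1 (edgeR adjusted p = 0.0156).

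Kv7 channels carry the M current that holds neurons back from repeated firing. Of the 5 genes, 4 were called higher in SH-SY5Y control libraries, where 30% of all genes were. KCNQ3 and KCNQ5, with no count in HepG2 control libraries, passed the filter only through SH-SY5Y and so had to differ. KCNQ1, at no more than 0.0667 CPM there, also passed it only through SH-SY5Y, so the filter favored its call. KCNQ3, a neuronal M-channel gene, was low in SH-SY5Y control replicate 2 (3.88 CPM) and had 12.7 and 14.1 CPM in the other control libraries, with no count in any HepG2 library (at least 252-fold higher in the control libraries). KCNQ5, also a neuronal M-channel gene, had 3.65, 1.14 and 4.52 CPM in SH-SY5Y control libraries and no count in HepG2 control libraries. KCNQ1, best known from heart and epithelia, had 11.2, 16.4 and 9.78 CPM in SH-SY5Y control libraries and 0.0412, 0.0667 and 0.0407 CPM in HepG2. KCNQ1 shares exon sequence with the antisense transcript KCNQ1OT1, and the strand setting of the counting is not given in the sources used here, so its counts are uncertain.

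Calcium- and sodium-activated channels were much more abundant in SH-SY5Y. KCNMA1, the BK channel pore opened by voltage and calcium, had 45.3, 18.9 and 70.5 CPM in SH-SY5Y control libraries and 0, 0 and 0.0407 CPM in HepG2. The SH-SY5Y EXACT1 libraries were much closer together at 56.4, 60.8 and 59.4 CPM, and the control mean without replicate 2 was 57.9 CPM. Its level per length depends on the length used, 1.26 CPM per kb of all annotated exons (35644 bases) and 3.72 CPM per kb of the longest transcript (12071 bases). KCNT2 and KCNT1, sodium-activated Slack-type channels, reached 17.7 and 5.91 CPM in their highest SH-SY5Y control library, with no count for KCNT2 in HepG2 and at most 0.136 CPM for KCNT1. KCNN1, the SK1 channel that follows calcium entry in neurons, had 11.7, 27.5 and 11.6 CPM in SH-SY5Y control libraries and at most 0.105 CPM in HepG2. Its relatives KCNN2, KCNN3 and KCNN4 stayed under 1 CPM in every library.

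Of the 9 tandem-pore leak channel genes tested in the control libraries, 7 were called higher in SH-SY5Y, where 30% of all genes were. No member reached a mean of 1 CPM in HepG2. KCNK5, with no count in HepG2 control libraries, passed the filter only through SH-SY5Y and so had to differ. KCNK1 and KCNK3, at 0 to 0.110 CPM there, also passed it only through SH-SY5Y, so the filter favored their calls. KCNK3, which encodes the acid-sensitive leak channel TASK-1, had 41.3, 54.4 and 32.0 CPM in SH-SY5Y control libraries and 0.110, 0.107 and 0.0542 CPM in HepG2 (log2 difference 8.27, SE 0.55, edgeR adjusted p = 9.11e-05). KCNK1, the weakly conducting TWIK-1 gene, had 33.0, 11.6 and 25.8 CPM against 0, 0.0534 and 0 CPM. Per length they stood at 6.84 ± 1.81 and 6.47 ± 2.99 CPM per kb (SD, n = 3) in SH-SY5Y control libraries, where their ranges overlapped. That overlap rests on control replicate 2, which had the highest KCNK3 (8.75) and the lowest KCNK1 (3.21 CPM per kb). In the SH-SY5Y EXACT1 libraries KCNK1 was above KCNK3, at 7.19 to 8.93 against 4.87 to 6.44 CPM per kb. Per kb of the longest transcript the control means were 10.9 for KCNK1 and 6.91 for KCNK3, and the order was not tested. KCNK5, the TASK-2 gene, had 3.93, 2.48 and 1.93 CPM in SH-SY5Y control libraries and no count in HepG2 control libraries, at least 68.4-fold higher.

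The inward rectifiers were divided between the lines. KCNJ10 (ENSG00000177807, chr1:159998651-160070483, minus strand) encodes Kir4.1, known from glia and kidney for clearing extracellular potassium, and it was the most abundant member in HepG2 at 3.70 ± 0.131 CPM per kb (SD, n = 3), or 36.2% of the family. It had 23.5, 25.2 and 24.2 CPM in HepG2 control libraries and 1.03, 0.242 and 0.110 CPM in SH-SY5Y control libraries. In the EXACT1 libraries it had 10.1, 25.1 and 25.2 CPM in HepG2 and 0.762, 0.234 and 0.214 CPM in SH-SY5Y, the low HepG2 value being that of replicate 1. The lines did not overlap in either contrast, with log2 differences of -6.42 (SE 0.82, edgeR adjusted p = 0.00102) and -6.50 (SE 0.70, edgeR adjusted p = 0.00055). Of the 4 glial markers, 1 reached 1 CPM in HepG2, where the list summed to 19.5 to 24.8 CPM in control libraries, and SOX10 and S100B had no count there. In SH-SY5Y control libraries the list summed to 1.12 to 2.06 CPM, and its part in the difference was not tested.

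KCNJ9 (ENSG00000162728, chr1:160081570-160090563, plus strand), which encodes the G protein-gated channel subunit Kir3.3 of neurons, lies 11086 bases from KCNJ10 and is read in the other direction. Its pattern was the reverse: it had no count in any of the 6 HepG2 libraries and 17.0, 13.6 and 17.9 CPM in SH-SY5Y control libraries, at least 398-fold higher. The SH-SY5Y EXACT1 libraries held 17.6, 18.2 and 20.5 CPM. KCNJ8, the Kir6.1 pore of ATP-sensitive channels in vascular cells, had 17.5, 12.6 and 15.3 CPM in SH-SY5Y control libraries and no count in HepG2 control libraries, at least 372-fold higher. KCNJ11, the Kir6.2 pore of ATP-sensitive channels, overlapped between the lines, with 1.11, 1.32 and 1.06 CPM in HepG2 and 1.30, 0.469 and 0.689 CPM in SH-SY5Y, and it did not pass the test (edgeR adjusted p = 0.06). KCNJ12 is nearly identical to KCNJ18, and its low counts in SH-SY5Y (1.27 CPM at most) are uncertain. KCNJ14 had 3.09 to 4.84 CPM in SH-SY5Y control libraries and 0.316 to 0.614 CPM in HepG2.

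Of the 17 Kv1 to Kv4 genes, 6 were higher in SH-SY5Y control libraries, 1 was tested and not called (KCND3), and 10 were too low to test. Over all genes tested, 30% were called higher. KCNC1 and KCNA3, at no more than 0.151 CPM in HepG2 control libraries, passed the filter only through SH-SY5Y, so the filter favored their calls. KCNC1, a fast Kv3 channel gene of rapidly firing neurons, had 25.7, 17.0 and 23.2 CPM in SH-SY5Y control libraries. Of the Kv1 genes, KCNA3, known from lymphocytes, was the one that reached 1 CPM in SH-SY5Y, at 1.82, 1.41 and 1.85 CPM.

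Modifying subunits held 3 of the 4 genes that were lower in SH-SY5Y. KCNG3 (ENSG00000171126, chr2:42442017-42494097, minus strand), a silent subunit that modifies other Kv channels, had 7.21, 7.47 and 6.53 CPM in HepG2 control libraries and 3.04, 0.666 and 2.71 CPM in SH-SY5Y. The groups did not overlap there (log2 difference -2.45, SE 0.50, edgeR adjusted p = 0.00662), but in the EXACT1 libraries HepG2 replicate 1 fell below every SH-SY5Y library at 1.92 CPM, against 8.73 and 6.37 CPM in the other HepG2 libraries. The log2 difference there was -1.61 (SE 0.51, edgeR adjusted p = 0.0361) with HepG2 EXACT1 replicate 1 and -1.98 (SE 0.26, edgeR adjusted p = 0.000449) without it. Its relative KCNG1 showed the opposite order, with 9.84, 26.4 and 10.0 CPM in SH-SY5Y control libraries and no more than 0.0534 CPM in HepG2.

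KCNE3 (ENSG00000175538, chr11:74454841-74467729, minus strand), a single-span subunit that holds KCNQ1 channels open in epithelia, had 1.99, 2.72 and 2.72 CPM in HepG2 control libraries and no count in any of the 6 SH-SY5Y libraries, at least 57.7-fold lower in SH-SY5Y. KCNMB3, a beta subunit of BK channels, had 5.09, 6.00 and 6.13 CPM in HepG2 control libraries and 1.29, 1.44 and 1.52 CPM in SH-SY5Y (log2 difference -2.64, SE 0.33, edgeR adjusted p = 0.000823). Its exons overlap those of PIK3CA on the opposite strand, so its counts are uncertain. KCNMB4, the BK beta subunit of neurons, had the other order, with 12.8, 14.9 and 13.2 CPM in SH-SY5Y control libraries and 1.91, 1.65 and 1.63 CPM in HepG2 (log2 difference 2.36, SE 0.32, edgeR adjusted p = 0.00113).

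KCNAB2, a Kv beta subunit that binds Kv1 channels, was the one gene above 10 CPM in both lines, with 13.0, 12.5 and 12.2 CPM in HepG2 control libraries and 14.5, 21.7 and 11.6 CPM in SH-SY5Y. The CPM overlapped in both contrasts. On TMM-scaled library sizes it was not called in the control libraries (log2 difference -0.24, SE 0.38, edgeR adjusted p = 0.629), but without SH-SY5Y control replicate 2 it was called lower there (-0.75, SE 0.15, edgeR adjusted p = 0.00455). It was also called lower in the EXACT1 libraries (-1.25, SE 0.34, edgeR adjusted p = 0.0197). Without HepG2 EXACT1 replicate 1 the difference there was smaller (-0.87, SE 0.13, edgeR adjusted p = 0.000793). The call with all EXACT1 libraries rests on the scaling, since plain CPM were 17.7 ± 4.46 in HepG2 and 14.5 ± 1.11 in SH-SY5Y (SD, n = 3 each). KCNAB3, whose product also binds Kv1 channels, was high in SH-SY5Y alone, with 11.0, 7.83 and 8.05 CPM in control libraries and at most 0.105 CPM in HepG2. Of the KChIP subunits, which bind Kv4 channels, KCNIP2 had 2.09, 1.92 and 1.83 CPM in SH-SY5Y control libraries and 0.316, 0.294 and 0.108 CPM in HepG2.

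In HepG2, several modifying subunits stood at levels at which transcripts of their usual pore partners were scarcely counted. Per length, KCNMB3 and KCNMB4 had 0.639 ± 0.0628 and 0.355 ± 0.0319 CPM per kb beside 0.000380 ± 0.000659 CPM per kb of KCNMA1. KCNE3 had 0.674 ± 0.115 CPM per kb beside 0.0111 ± 0.00335 CPM per kb of KCNQ1 (SD, n = 3 control libraries each). In SH-SY5Y the order of KCNMA1 and KCNMB4 depends on the length used. KCNMA1 had 1.26 CPM per kb of all annotated exons beside 2.80 CPM per kb of KCNMB4, and 3.72 beside 2.88 CPM per kb of the longest transcript.

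Promoter windows were found for 71 of the 95 genes. Their median GC content was 65.0% against 61.7% over 19069 genes of the table with a window, and their median number of CG pairs was 19 against 20. The 26 members at 1 CPM or more in SH-SY5Y control libraries had a median GC content of 71.2% and 32.5 CG pairs, and the 43 below 1 CPM in both lines had 61.7% and 9. All genes showed a split in the same direction, with 65.7% and 27 for those at 1 CPM in SH-SY5Y and 52.3% and 5 for those below 1 CPM in both lines. The GC box GGGCGG was found in 43 of the 71 windows (60.6%) and in 44.6% of all 27305 windows, and TATAAA in 6 of the 71 (8.45%) and in 12.0% of all, on either strand.

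CAGCACC and GGACAG, the left and right parts of the RE1 element at which the repressor REST is known to silence neuronal genes outside neurons, were also searched on both strands. CAGCACC was found in 8 of the 71 windows (11.3%, against 7.64% of all windows) and GGACAG in 18 (25.4%, against 20.5%). Both parts on the same strand, in this order and at most 12 bases apart, were found in 2 member windows, those of KCNH5 and KCNH6 (2.82%), and in 42 of all 27305 (0.154%). The stretches around them are shown because these are the member windows with both parts together, with the parts in capitals, on GRCh38.p14 at chr14:63045487-63045533 (minus strand) and chr17:63523112-63523161 (plus strand).
KCNH5: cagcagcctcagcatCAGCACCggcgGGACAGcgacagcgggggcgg
KCNH6: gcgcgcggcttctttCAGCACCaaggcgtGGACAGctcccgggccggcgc
The parts lie 4 bases apart in KCNH5 and 7 bases apart in KCNH6. KCNH6 had 5.37, 10.7 and 4.17 CPM in SH-SY5Y control libraries and 0.233, 0.520 and 0.190 CPM in HepG2, and KCNH5 had 0.692, 0.484 and 1.86 CPM against no count in HepG2. These matches describe the letters of the windows and say nothing of binding.

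Genes that work with potassium channels but have other names were described from a list of 49, made up of other potassium-permeable channels, auxiliary subunits, G proteins, regulators, pumps and cotransporters. In the control libraries 44 were tested, 23 were higher and 7 lower in SH-SY5Y (median log2 difference 1.43), where 30% of all genes were higher and 23.2% lower (median 0.27). In the EXACT1 libraries the counts were 43, 21 and 8 (median 1.06), where 28.1% and 24.3% of all genes were called (median 0.18). CNTN2, a cell adhesion protein that gathers Kv1 channels on axons, had no count in HepG2 and 27.6 ± 3.90 CPM in SH-SY5Y control libraries.

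Among the G proteins that gate Kir3 channels, 6 of 8 were higher in SH-SY5Y control libraries, where 30% of all genes were, and none was lower. In the EXACT1 libraries 5 of the 8 were higher, where 28.1% of all genes were, and none was lower. In the pump and cotransporter group, 2 of the 10 tested were higher, where 30% of all genes were, and 5 were lower, where 23.2% were. The largest negative log2 differences of the whole list belonged to the potassium-chloride cotransporter SLC12A7, with 3.01 ± 0.370 CPM in SH-SY5Y but 38.4 ± 0.769 CPM in HepG2 (log2 difference -4.31, SE 0.26, edgeR adjusted p = 5.18e-05), and NEDD4L, a ubiquitin ligase that removes channels from the membrane, with 23.5 ± 9.34 and 284 ± 5.04 CPM (-4.29, SE 0.29, edgeR adjusted p = 8.76e-05; SD, n = 3 each). The sulfonylurea receptors ABCC8 and ABCC9, without which Kir6 pores do not reach the surface, had no count in HepG2 control libraries and 0.714 ± 0.561 and 0.174 ± 0.150 CPM in SH-SY5Y.

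The design also sets EXACT1 against control within each line. In HepG2, none of the 20 genes tested was called, where 0% of all 17139 genes were called (edgeR's quasi-likelihood test; DESeq2 called 0 of the family and 10 of all genes). At an unadjusted p under 0.05 there was 1 gene of the family and 164 of all genes. That gene was KCNE3, with 1.99, 2.72 and 2.72 CPM in control and 0.917, 1.75 and 1.23 CPM in EXACT1 libraries (log2 change -0.85, SE 0.32, 95% interval -1.60 to -0.10, edgeR p = 0.0321, adjusted p = 0.792). KCNAB2 was the one gene with every EXACT1 library above every control library, with 22.5, 13.7 and 16.8 CPM against 13.0, 12.5 and 12.2 CPM (log2 change 0.63, SE 0.32, edgeR adjusted p = 0.792), and KCNE3 the one with every library below. Such pairs of groups without overlap made up 9.49% of all genes tested. KCNE5, KCNK6 and KCNJ4 had the next smallest p, and none passed the test (edgeR adjusted p = 0.792 each).

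For the most abundant HepG2 gene, KCNJ10, the value moved with 1 library. Its log2 change was -0.22 (SE 0.31, 95% interval -0.97 to 0.52) over 6 libraries and 0.03 (SE 0.09, 95% interval -0.16 to 0.22) without HepG2 EXACT1 replicate 1. For KCNG3 the values were -0.29 (SE 0.46) and 0.08 (SE 0.18). Over the 20 genes tested, the 95% interval lay inside a log2 change of 1 either way for 4 genes with all libraries, and for 6 of 22 without that replicate, against 26.0% and 68.3% of all genes. None was called without it, and KCNE3 had a log2 change of -0.74 (SE 0.29) and KCNAB2 one of 0.26 (SE 0.12), both with an edgeR adjusted p of 1.00.

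In SH-SY5Y, none of the 59 genes tested was called, where 0% of all 19853 genes were called, and DESeq2 called 0 of the family and 9 of all genes. No gene of the family had an unadjusted p under 0.05, against 200 of all genes. The smallest p belonged to KCNJ4, KCNK12, KCNH6, KCNQ1 and KCNN1, with log2 changes between -1.41 and -0.60 and an edgeR adjusted p of 0.796 each. KCND1, a Kv4 channel gene, was among the genes with every EXACT1 library above every control library, as 8.08% of all genes did in either direction. KCND1 had 3.96, 3.63 and 3.62 CPM against 2.90, 2.41 and 2.96 CPM.

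Values in this line moved with SH-SY5Y control replicate 2. With it, KCNH2 had a log2 change of -0.53 (SE 0.33), and without it -0.12 (SE 0.11, 95% interval -0.37 to 0.13). KCNK3 went from -0.54 (SE 0.35) to -0.11 (SE 0.15), KCNN1 from -0.84 (SE 0.50) to -0.04 (SE 0.15) and KCNMA1 from 0.31 (SE 0.37) to 0.01 (SE 0.18). The number of genes whose 95% interval lay inside a log2 change of 1 either way was 10 of 59 with all 6 libraries and 29 of 60 (48.3%) without that replicate, and over all genes the shares were 29.4% and 63.3%. The median change over the family was -0.23 with it and 0.02 without it. Without it, KCNC4 alone had an unadjusted p under 0.05 (log2 change 0.59, SE 0.25, edgeR adjusted p = 1.00).

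**Figure D4:**
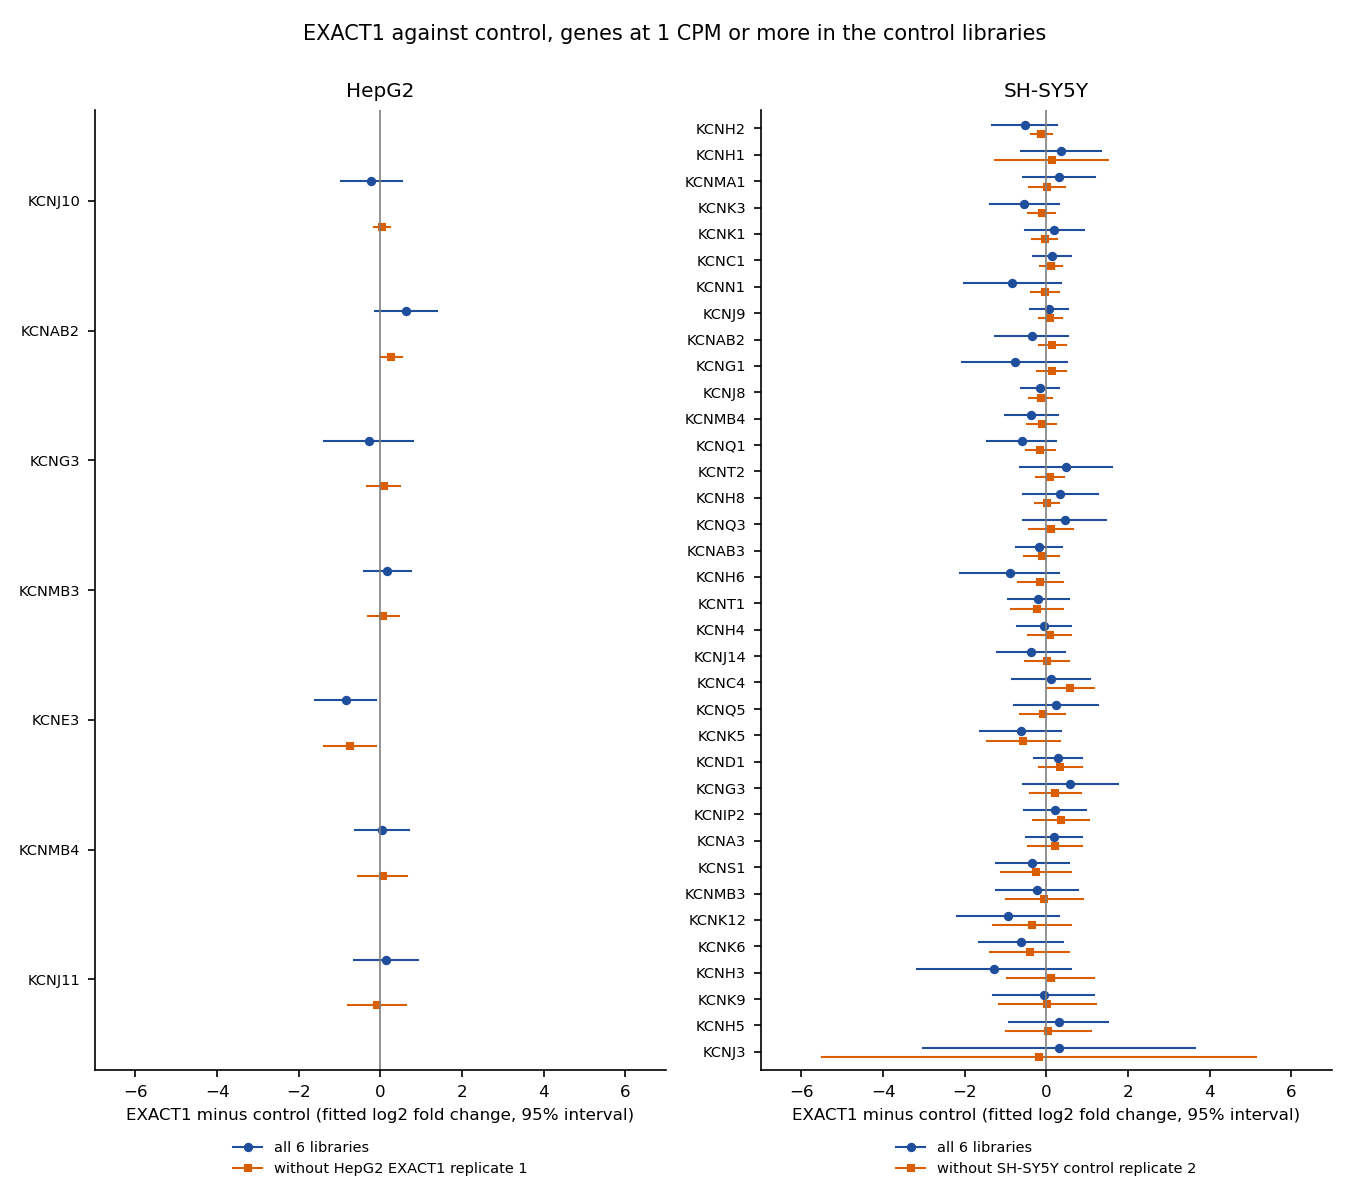
Fitted log2 change, EXACT1 minus control, with its 95% interval for the genes reported here at 1 CPM or more in the control libraries, in HepG2 (left) and SH-SY5Y (right), ordered by control level with the most abundant at the top. Circles use all 6 libraries of the line and squares leave out the library that stands apart; without it the intervals of KCNJ10, KCNH2 and KCNN1 narrow and move toward 0.

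The change with EXACT1 was also compared between the lines in 1 fit of 12 libraries. Of 62 genes tested none was called, where 0% of all 22009 genes were called, and 5 of the family and 1907 of all genes had an unadjusted p under 0.05. Those 5 were KCNH4, KCNQ1, KCNT1, KCNK5 and KCNC1 (edgeR adjusted p = 0.487 each), and each rests on a few HepG2 counts: KCNH4, for instance, had no count in HepG2 control libraries and 0.0564, 0.236 and 0.0519 CPM in HepG2 EXACT1 libraries, while SH-SY5Y stayed between 3.87 and 5.32 CPM. DESeq2 called 1 of the family, KCNH4 (log2 difference -5.71, DESeq2 adjusted p = 0.0297), and 31 of all genes. Without both libraries that stand apart, 9 genes of the family and 1029 of all 22857 genes had an unadjusted p under 0.05, and edgeR called none of the family and 2 of all genes. The comparisons of EXACT1 with control share their control libraries with the line contrast of the control libraries.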

How the data were processed

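Counts per Ensembl gene were deposited by the authors as 1 table of whole numbers, not normalized. The tools named, per the submitters' processing notes, are HISAT2, cutadapt, StringTie, limma and edgeR, with GRCh38 (hg38). The strand setting is not given in the sources used here, nor are versions. Groups and replicate numbers came from sample titles. HEK293A columns (6 libraries) were not used: of 6574 genes above 500 counts in all 12 other libraries, 2555 were at 0 in all 6. Within groups no libraries were identical.

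CPM are counts per 1000000 of the library total. Lengths and positions came from GENCODE release 29, and promoters from RefSeq. Genes kept by filterByExpr were tested with edgeR 4.0.16 (R 4.3.3): TMM scaling, robust quasi-likelihood F test, two-sided, Benjamini-Hochberg over all genes tested, called under 0.05. Only the groups compared entered a fit, and the difference between lines used an interaction over 12 libraries. Scripts were tested on simulated data. Alternatives were DESeq2 1.42.0, other scalings and filters, glmTreat, a replicate block, 1 fit of 12 libraries and leaving out each library.

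Named genes were the 12 highest per kb in each line, up to 12 called genes of largest change in each direction with a log2 change of at least 1, no overlap and 1 CPM or more, the 5 smallest p with EXACT1, the top gene of each class, and 2 listed partners each way. Other genes are named where they complete a class or a pair. Members, lists and motifs were chosen with earlier results of these data known. Some genes of the family and of the partner list are not reported here or drawn.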

Additional observations from a re-analysis of the deposited data

How the results depend on the processing

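The counts of genes called between the lines in the control libraries stayed within 1.5 times under every alternative run. In the EXACT1 libraries the count called lower was 6 and ranged from 3 to 6 when each library was left out, with 3 reached without SH-SY5Y EXACT1 replicate 3. Over all genes the share called lower was 24.3% with all libraries and 18% without that replicate, and the cause was not tested. DESeq2 called 1 gene lower (KCNH4) in the comparison of the EXACT1 change between lines, where edgeR called 0; the cause was not tested. KCNG3 in the EXACT1 libraries lost its call under 8 alternatives, with adjusted p between 0.0532 and 0.131, and KCNK5 lost it without SH-SY5Y EXACT1 replicate 1 (adjusted p = 0.0519). No result reversed. Upper-quartile scaling moved the median log2 difference over all genes between the lines in the control libraries from 0.27 to 0.40.

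Replicate numbers did not clearly pair the libraries: the correlation of deviations between same-numbered libraries lay between -0.136 and 0.397 over 12 pairs and was not above 0.1 for every pair of any comparison. Between SH-SY5Y control and EXACT1 libraries it was 0.397, 0.179 and 0.014 for replicates 1, 2 and 3. The highest values with other numbers were -0.186, 0.088 and 0.029, so a pairing there is not settled. With a replicate block, edgeR called 36 genes higher and 4 lower between the lines in the control libraries, where 23.4% and 20.7% of all genes were called. In the EXACT1 libraries it called 32 and 4, where 20.4% and 18.4% of all genes were called. It called 0 with EXACT1 in either line, both in the family and over all genes. With 3 libraries a group, and 1 per line standing apart, small changes were not detectable, and genes at a few counts in HepG2 have wide intervals. Leaving out both libraries that stand apart was an alternative chosen after seeing the data.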
